A study of Mus musculus with 10 samples.

Results

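Glutathione transferases join the tripeptide glutathione to electrophilic compounds, which makes drugs, pollutants and products of lipid peroxidation easier to export from the hepatocyte. The cytosolic enzymes fall into classes, and the 3 genes described here come from different classes: Gstt3 from theta, Gstm4 from mu and Gstp3 from pi. They were taken as every probe set whose platform annotation gives exactly 1 of these symbols, which found 3 probe sets, 1 for each of 3 genes, among the 12411 tested and the 7542 genes with a probe set of their own. The genes were chosen by measured values, namely their differences between the groups in earlier results of these data (Gstm4 by TgSREBP-1a against wild type), so their levels below are a description with no test, except where stated.

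Expression was measured in mouse liver on 10 oligonucleotide arrays, 2 for each of 5 groups of male mice. TgSREBP-1a and TgSREBP-2 mice carried transgenes for the nuclear, active forms of human SREBP-1a or human SREBP-2, and wild type littermates were their controls. These mice were 12 to 16 weeks old and ate a diet high in protein and low in carbohydrate for 2 weeks to raise the transgenes. The sources used here do not name the promoter that drives the transgenes. Scap-/- mice carried MX1-Cre, a recombinase under an interferon-responsive promoter that is active in more cells than hepatocytes, and lacked SCAP in liver. They and their wild type controls were 10 to 12 weeks old, ate chow and had 4 injections of polyinosinic-polycytidylic acid, with livers taken 14 days after the last. In each group the RNA of 5 livers was combined into 1 pool and hybridised to 2 arrays. Replicates are therefore hybridisations of 1 pool, and every error and p-value compares pools against hybridisation error, not mice.

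SREBPs are transcription factors that raise genes of lipid synthesis. SREBP-1a acts on fatty acid and cholesterol genes, SREBP-2 mainly on cholesterol genes, and SCAP escorts the membrane-bound precursors to the Golgi, where they are cut to the active form. Levels are log2 expression values, and differences between groups are log2 fold changes with limma standard errors after the sign ±, unless an SD is named. A probe set that is no member passes the test, and is said to rise or fall, when it moved 1.5-fold or more with an adjusted p under 0.05.

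Duplicate arrays correlated between 0.9871 and 0.9944, and their differences had an SD between 0.162 and 0.246, widest in the Scap-study wild type pool. For each of the 4 arrays of the Scap study, the closest array of the opposite genotype had a higher correlation than the duplicate, so the members' values of that study are given with the range found when each array was left out. Scap itself has 2 probe sets, and the brighter read 7.94 and 7.75 in Scap-/- livers, against 9.24 and 8.89 in their wild type (-1.22 ± 0.18, limma, adjusted p = 0.018). That call was lost on leaving out either Scap-/- array (limma, adjusted p = 0.058 and 0.23) or wild type array 1 (limma, adjusted p = 0.15), and the sources used here do not say whether the probe set lies in the deleted stretch.

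Gstt3, a theta class transferase, read 9.27 and 9.04 in TgSREBP-1a livers, 7.18 and 7.06 in TgSREBP-2 livers, against 7.14 and 7.15 in their wild type. It read 6.65 and 6.5 in Scap-/- livers, against 7.57 and 7.36 in the Scap-study wild type pool. The TgSREBP-1a arrays thus stood above all others, the Scap-/- arrays stood below all others, and the TgSREBP-2 arrays overlapped their wild type. In order of mean level, TgSREBP-1a (9.15 ± 0.16, SD, n = 2) came first, then wild type of the Scap study (7.47 ± 0.15), wild type of the transgenic study (7.15 ± 0.01), TgSREBP-2 (7.12 ± 0.08) and Scap-/- (6.58 ± 0.10), each an SD of 2 arrays. Among neighbours in this order, TgSREBP-2 and its wild type were those with overlapping arrays.

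The difference of Gstt3 between TgSREBP-1a and wild type was 2.01 ± 0.12 (4.02-fold), rank 21 among the rises of 12411 probe sets, of which 1.36% were called higher and 0.814% lower (2.18% in all). Nothing is read from that share, because this contrast chose the gene. Between TgSREBP-2 and the same wild type the difference was -0.03 ± 0.12, with a 95% interval from -0.28 to 0.23; there 0.338% of probe sets were called higher and 0.161% lower (0.5% in all). Set directly against TgSREBP-2, TgSREBP-1a was higher by 2.03 ± 0.12 (4.09-fold), rank 5 among the rises, where 1.18% of probe sets were called higher and 0.677% lower (1.86% in all). The transgenic comparisons share their wild type arrays.

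In Scap-/- livers Gstt3 was 1.85-fold lower than in their wild type (-0.89 ± 0.12), rank 45 among the falls, in a comparison where 0.0161% of probe sets were called higher and 0.258% lower (0.274% in all). With each array left out in turn the value lay between -0.99 and -0.78. For TgSREBP-1a against wild type the same range was 1.89 to 2.12. The transgenic-study wild type pool stood lower than that of the Scap study (-0.32 ± 0.12), where 0.153% of probe sets were called higher and 0.355% lower (0.508% in all). Diet, age, injections and breeding differ between these wild type pools and cannot be told apart.

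**Figure D1:**
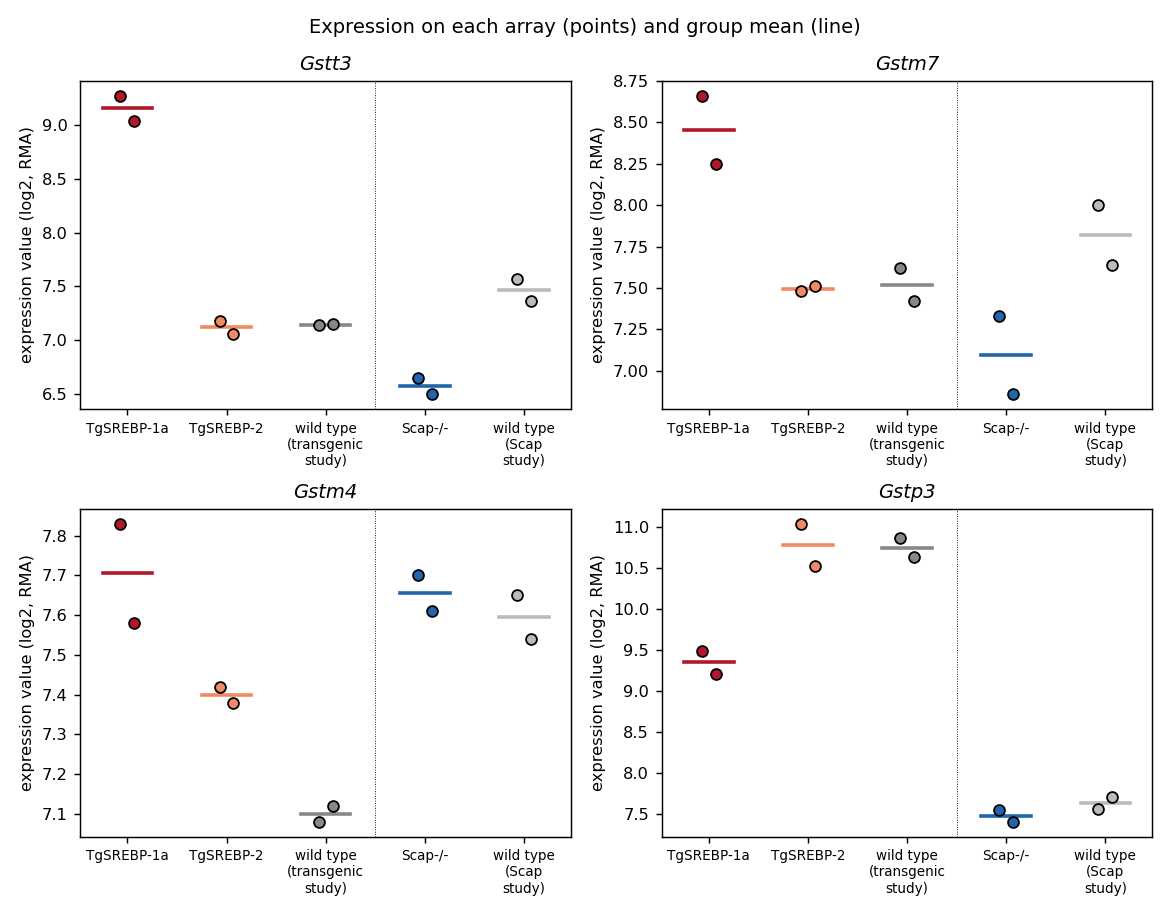
Expression value (log2) of Gstt3, Gstm7, Gstm4 and Gstp3 on each of the 10 arrays (points) with the group mean (line); the dotted line parts the transgenic study (left) from the Scap study (right), and each panel has its own axis. Gstt3 and Gstm7 have their highest means in TgSREBP-1a and their lowest in Scap-/-, while Gstp3 lies between 9.20 and 11.04 in the transgenic study and between 7.40 and 7.70 in the Scap study.

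Genes known to be raised by SREBPs give the scale of that response, as a list drawn from background knowledge with results of these data already known. Of 18 measured target genes, 17 rose in TgSREBP-1a and 0 fell (median 1.66, against -0.02 over all probe sets). In TgSREBP-2, 13 rose and 0 fell (median 1.40). In Scap-/-, 12 fell and 0 rose (median -1.18, against 0.02 over all probe sets). The wild type pools themselves differed in these genes: 8 were lower in the transgenic study and 0 higher (median -0.95).

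The 5 targets that did not pass in TgSREBP-2 were the desaturase Fads2 (0.70 ± 0.14), malic enzyme Me1 (0.81 ± 0.29), the mitochondrial acetyl-CoA carboxylase Acacb (-0.14 ± 0.15), the lipid droplet protein Pnpla3 (0.01 ± 0.15) and the phosphatidate phosphatase Lpin1 (-0.06 ± 0.22). Gstt3 read -0.03 in that comparison. Since they were picked by their values in TgSREBP-2, their differences between TgSREBP-1a and TgSREBP-2 are given with no test, with Fads2 at 1.58 ± 0.14, Me1 at 1.54 ± 0.29, Acacb at 1.48 ± 0.15, Pnpla3 at 1.32 ± 0.15 and Lpin1 at 1.37 ± 0.22. In Scap-/- livers Fads2 (-1.13 ± 0.14) and Acacb (-1.19 ± 0.15) fell, whereas Me1 (-1.32 ± 0.29), Pnpla3 (-0.11 ± 0.15) and Lpin1 (0.33 ± 0.22) did not pass.

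The stretch of 250 bases before the first listed Gstt3 transcription start is shown because the gene moved with the active SREBP-1a form and with loss of SCAP. The same stretch of Gstm7, a mu class relative whose group levels fell in the same order, and of Gstp3, which was lower in TgSREBP-1a, stand beside it. Sequences are from RefSeq on GRCm38.p6, 5′ to 3′ along the gene, and capitals mark matches on either strand to the motifs searched, which were TCACNCCA (the core of the SREBP motif), CACGTG (the palindromic E-box, which SREBPs can also bind), CCAAT (the NF-Y box) and TGACNNNGC (the core of the antioxidant response element).
Gstt3 (chr10:75781423-75781672, minus strand): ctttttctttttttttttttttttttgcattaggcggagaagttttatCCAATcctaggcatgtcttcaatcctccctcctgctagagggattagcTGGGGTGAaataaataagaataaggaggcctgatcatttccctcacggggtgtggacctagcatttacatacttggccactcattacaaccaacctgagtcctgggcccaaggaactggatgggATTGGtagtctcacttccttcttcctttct
Gstm7 (chr3:107931818-107932067, minus strand): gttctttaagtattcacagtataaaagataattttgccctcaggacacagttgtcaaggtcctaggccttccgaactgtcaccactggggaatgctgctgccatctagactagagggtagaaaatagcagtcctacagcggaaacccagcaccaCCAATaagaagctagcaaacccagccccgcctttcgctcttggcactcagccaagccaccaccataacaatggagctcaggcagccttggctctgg
Gstp3 (chr19:4059448-4059697, minus strand): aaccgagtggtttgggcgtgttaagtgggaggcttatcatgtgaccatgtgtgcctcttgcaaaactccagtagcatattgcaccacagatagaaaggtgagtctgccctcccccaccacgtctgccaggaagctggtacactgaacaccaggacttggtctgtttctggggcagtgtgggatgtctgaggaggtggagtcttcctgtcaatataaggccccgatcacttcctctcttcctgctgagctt

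The Gstt3 stretch held 1 match to TCACNCCA, read on the opposite strand as TGGGGTGA, at 154 to 147 bases before the start. It held 2 matches to CCAAT, at 202 to 198 and, on the opposite strand, at 30 to 26 bases before the start. The Gstm7 stretch held 1 CCAAT match, at 96 to 92 bases, and that of Gstm4 1 on the opposite strand, at 62 to 58 bases. The Gstp3 stretch held 0 matches to these 4 motifs. The reference listed 2 promoter windows each for Gstt3, Gstm4 and Gstm7 and 1 for Gstp3. Only the first listed window of a gene was searched. Of 27025 promoters of the same length, 3.58% held TCACNCCA, 6.05% CACGTG, 34.5% CCAAT and 10.1% TGACNNNGC. Of 26 promoters of listed SREBP targets, 2 held TCACNCCA and 18 held CCAAT. The matches did not overlap, and a match is a description of letters, not of binding.

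By Pearson correlation over the 10 arrays, among 297 probe sets with 1 symbol whose group means spanned at least 1 log2 unit, the 5 most like Gstt3 were Tlcd1 (r = 0.985), Slc44a1 (r = 0.965), Acacb (r = 0.964), Tmem135 (r = 0.963) and Rdh9 (r = 0.963). The points come from 5 pools with 2 arrays each, so r is a description. Tlcd1, which influences the fatty acids of membranes, differed by 1.65 ± 0.13 between TgSREBP-1a and wild type, by 0.23 ± 0.13 between TgSREBP-2 and wild type and by -0.81 ± 0.13 between Scap-/- and its wild type. Acacb gave 1.33, -0.14 and -1.19 in these comparisons, and Tmem135 gave 1.52, 0.04 and -0.92. Rdh9, of the retinol dehydrogenase family, gave 2.51, 0.15 and -0.35, and the choline transporter Slc44a1 gave 1.36, 0.07 and -0.19. For the last pair the likeness thus lay in TgSREBP-1a more than in Scap-/-. Another probe set of Slc44a1 read 0.13 ± 0.10 in TgSREBP-1a, and another of Tlcd1 read 0.43 ± 0.13, so the probe sets of these genes disagreed.

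Gstm4, a mu class transferase, read 7.83 and 7.58 in TgSREBP-1a livers, 7.42 and 7.38 in TgSREBP-2 livers, and 7.08 and 7.12 in their wild type. It read 7.70 and 7.61 in Scap-/- livers, against 7.65 and 7.54 in their wild type. Its whole range was narrow, at 0.61 between the highest and lowest group means, and the transgenic-study wild type pool stood lowest, without overlap with any other group. The means were 7.71 ± 0.17 in TgSREBP-1a, 7.66 ± 0.06 in Scap-/-, 7.59 ± 0.07 in wild type of the Scap study, 7.40 ± 0.02 in TgSREBP-2 and 7.10 ± 0.03 in wild type of the transgenic study (SD, n = 2 each). In this order TgSREBP-1a overlapped Scap-/-, and Scap-/- overlapped its wild type, while the other neighbours did not overlap.

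Between TgSREBP-1a and wild type Gstm4 differed by 0.61 ± 0.10 (1.52-fold), just past the 1.5-fold minimum of the call, and by 0.48 to 0.73 with each array left out. The difference was 0.30 ± 0.10 for TgSREBP-2 against wild type and 0.31 ± 0.10 for TgSREBP-1a against TgSREBP-2. The transgenic-study wild type pool stood lower than that of the Scap study by -0.50 ± 0.10. The arrays of Scap-/- and its wild type were not in the contrast that chose Gstm4, and it is the test made on this gene. There Gstm4 did not pass (0.06 ± 0.10, 95% interval -0.17 to 0.29; limma, adjusted p = 0.89), with 0.01 to 0.11 when each array was left out.

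Among the same 297 probe sets, the 5 most like Gstm4 were those of Blvrb (r = 0.951), Nudt18 (r = 0.916), Spp2 (r = 0.819), Atl3 (r = 0.802) and Rbis (r = 0.791). The ranked probe sets spanned at least 1 log2 unit, so any with a range as narrow as that of Gstm4 (0.61) were left out. Blvrb, which reduces biliverdin and flavins, read 9.42 and 9.24 in TgSREBP-1a, 9.08 and 8.88 in TgSREBP-2, against 8.40 and 8.30 in wild type. In the Scap study it read 9.53 and 9.18 in Scap-/-, against 9.46 and 9.34 in wild type. As for Gstm4, its arrays in the transgenic-study wild type pool stood below all others. Between the wild type pools Blvrb differed by -1.05 ± 0.13, the nudix hydrolase Nudt18 by -0.99 ± 0.17, the secreted phosphoprotein Spp2 by -0.67 ± 0.19, Atl3, which shapes the endoplasmic reticulum, by -0.50 ± 0.14 and Rbis by -1.05 ± 0.28. Nudt18 differed by 1.65 ± 0.17 between TgSREBP-1a and wild type but by 0.14 ± 0.17 between TgSREBP-2 and wild type. The other probe sets of Atl3 read between -0.05 and 0.58 in TgSREBP-1a, against 1.16 for the brightest. Those of Rbis read 0.83 and 0.14 there, and -0.73 and 0.02 between the wild type pools.

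Gstp3, a pi class transferase, read 9.49 and 9.20 in TgSREBP-1a livers, 11.04 and 10.52 in TgSREBP-2 livers, and 10.86 and 10.63 in their wild type. It read 7.54 and 7.40 in Scap-/- livers, against 7.56 and 7.70 in their wild type. The 6 arrays of the transgenic study thus lay between 9.20 and 11.04, above the 4 of the Scap study, which lay between 7.40 and 7.70. In the transgenic study the TgSREBP-1a arrays stood below the rest. The group means were 10.78 ± 0.36 in TgSREBP-2, 10.74 ± 0.16 in its wild type, 9.34 ± 0.20 in TgSREBP-1a, 7.63 ± 0.10 in wild type of the Scap study and 7.47 ± 0.10 in Scap-/- (SD, n = 2 each). TgSREBP-2 overlapped its wild type, and the arrays of the Scap study lay 0.02 apart at their nearest.

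Between the wild type pools Gstp3 differed by 3.11 ± 0.17 (8.65-fold higher in the transgenic study), rank 1 among the rises of 12411 probe sets. Between TgSREBP-1a and wild type it differed by -1.40 ± 0.17 (2.64-fold lower in TgSREBP-1a), rank 28 among the falls, and between TgSREBP-1a and TgSREBP-2 by -1.43 ± 0.17 (2.70-fold lower in TgSREBP-1a), rank 19 among the falls. With each array left out these values lay between 3.0 and 3.23, between -1.54 and -1.26 and between -1.69 and -1.18. Between TgSREBP-2 and wild type the difference was 0.03 ± 0.17 (95% interval -0.34 to 0.41). Between Scap-/- and its wild type it was -0.16 ± 0.17 (95% interval -0.53 to 0.21), and -0.23 to -0.09 with each array left out. In TgSREBP-1a livers Gstt3 and Gstp3 thus differed from wild type in opposite directions on the same arrays.

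**Figure D2:**
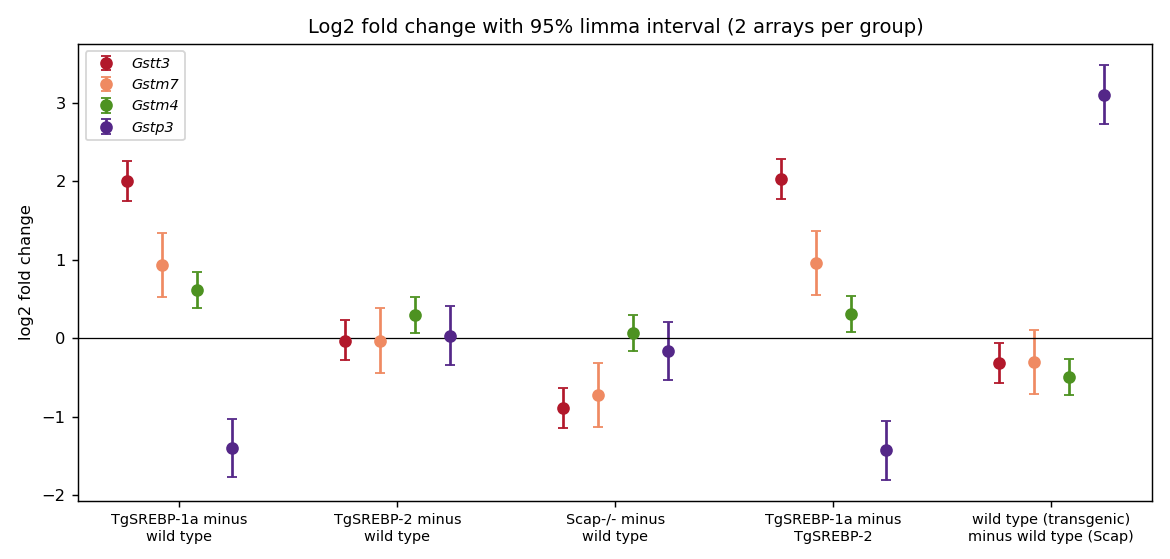
Log2 fold change with its 95% limma interval for Gstt3, Gstm7, Gstm4 and Gstp3 in each of the 5 comparisons, 2 arrays per group. Gstt3 stands at 2.01 and Gstp3 at -1.40 in TgSREBP-1a against wild type, while in TgSREBP-2 against wild type the 4 genes lie between -0.03 and 0.30.

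The 5 probe sets most like Gstp3 were those of Fgl1 (r = 0.960), Nr1d2 (r = 0.901), Tifa (r = 0.876), Slc7a2 (r = 0.856) and Slc39a14 (r = 0.806). Fgl1, a fibrinogen-like protein secreted by hepatocytes, read 8.84 and 8.66 in TgSREBP-1a, 10.04 and 10.01 in TgSREBP-2, against 9.90 and 9.41 in wild type. In the Scap study it read 8.16 and 7.61 in Scap-/-, against 8.25 and 7.72 in wild type. As for Gstp3, every array of the transgenic study stood above every array of the Scap study. Between the wild type pools Fgl1 differed by 1.67 ± 0.22, the clock repressor Nr1d2 by 1.06 ± 0.22, Tifa, an adaptor of innate immune signalling, by 1.21 ± 0.24, the cationic amino acid transporter Slc7a2 by 0.62 ± 0.23 and the zinc transporter Slc39a14 by 1.25 ± 0.20. In TgSREBP-1a against wild type Fgl1 read -0.90 ± 0.22, Tifa -0.99 ± 0.24, Slc39a14 -0.90 ± 0.20, Nr1d2 0.04 ± 0.22 and Slc7a2 0.08 ± 0.23. Of these 5, Slc39a14 passed the test there (limma, adjusted p = 0.037), while Fgl1 (limma, adjusted p = 0.063) and Tifa (limma, adjusted p = 0.067) did not. Other probe sets of Slc39a14 read -0.19 and -0.44 there, and 0.14 and 0.40 between the wild type pools.

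**Figure D3:**
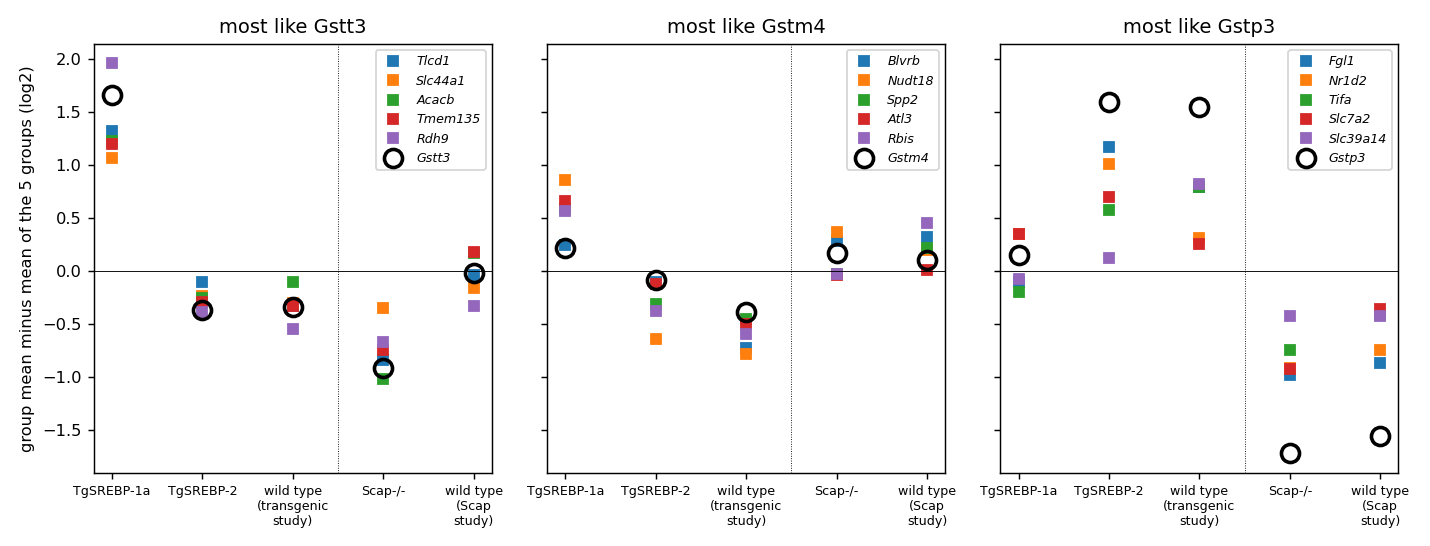
Mean level of each group minus the mean of the 5 groups (log2) for each member (open circle) and the 5 probe sets most like it over 10 arrays (squares), among those spanning at least 1 log2 unit. The dotted line parts the transgenic study from the Scap study. The panel of Gstt3 shows 1 high group, TgSREBP-1a, and that of Gstp3 a step between the studies. That of Gstm4 shows a low transgenic-study wild type pool, with TgSREBP-2 close to it for Nudt18, Spp2 and Rbis.

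Relatives of these enzymes were followed in a list of 27 other glutathione transferase genes, of which 4 were measured. Gstm7, a mu class enzyme encoded on chromosome 3 as Gstm4 is, read 8.66 and 8.25 in TgSREBP-1a, 7.48 and 7.51 in TgSREBP-2, against 7.62 and 7.42 in wild type. It read 7.33 and 6.86 in Scap-/-, against 8.0 and 7.64 in wild type. The order of its group means was that of Gstt3, from 8.45 ± 0.29 in TgSREBP-1a to 7.10 ± 0.33 in Scap-/- (SD, n = 2 each). Gstm7 rose in TgSREBP-1a against wild type (0.93 ± 0.18, 1.91-fold; limma, adjusted p = 0.023) and was higher there than in TgSREBP-2 (0.96 ± 0.18; limma, adjusted p = 0.023). Each call was lost when any of 3 of its 4 arrays was left out, with adjusted p up to 0.28. In TgSREBP-2 against wild type it read -0.03 ± 0.18 (limma, adjusted p = 0.99). In Scap-/- it did not pass (-0.72 ± 0.18; limma, adjusted p = 0.32).

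The mu class genes Gstm4 and Gstm7 thus gave different readings in Scap-/- (0.06 and -0.72), and how far either probe set takes up transcripts of other mu class genes was not tested. The microsomal transferase Mgst3 lay between -0.23 and 0.16 in the 5 comparisons, the prostaglandin E synthase Ptges between -0.06 and 0.19 and Gstcd between -0.34 and 0.28, and none of these passed in limma. At an unadjusted p under 0.05, limma gave 1 of the 4 relatives in each comparison other than that of the wild type pools, where it gave 0. The share of all probe sets was 10.3% in TgSREBP-1a, 7.92% in TgSREBP-2 and 7.74% in Scap-/-, each against its wild type. It was 14.7% between the transgenic lines and 9.7% between the wild type pools.

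Genes that make, recycle or use glutathione were measured for 18 of 40 listed. In TgSREBP-1a against wild type 0 of the 18 passed in limma (6 at an unadjusted p under 0.05, as were 10.3% of all probe sets), with a median of -0.06 and a range from -0.70 to 0.60. In TgSREBP-2 0 passed (3 unadjusted, against 7.92% of all probe sets; median 0.00), and in Scap-/- 0 passed (2 unadjusted, against 7.74%; median 0.01). The wild type pools differed in 0 of them (3 unadjusted, against 9.7%; median 0.05). Gclc, the catalytic subunit of the enzyme that limits glutathione synthesis, read -0.33 ± 0.11 in TgSREBP-1a, -0.26 ± 0.11 in TgSREBP-2 and 0.37 ± 0.11 in Scap-/-, each against its wild type. Its modifier subunit Gclm read -0.40 ± 0.33, 0.27 ± 0.33 and -0.69 ± 0.33 there. Between TgSREBP-1a and TgSREBP-2, 7 of the 18 had an unadjusted p under 0.05 in limma, against 14.7% of all probe sets. The median of the 18 was -0.12 in that comparison, against 0.01 over all probe sets, of which 0.677% were called lower. Glo1, which clears methylglyoxal with glutathione, was the 1 call, lower in TgSREBP-1a than in TgSREBP-2 (-0.68 ± 0.15; limma, adjusted p = 0.043), and it did not pass with any of the 4 arrays left out.

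**Figure D4:**
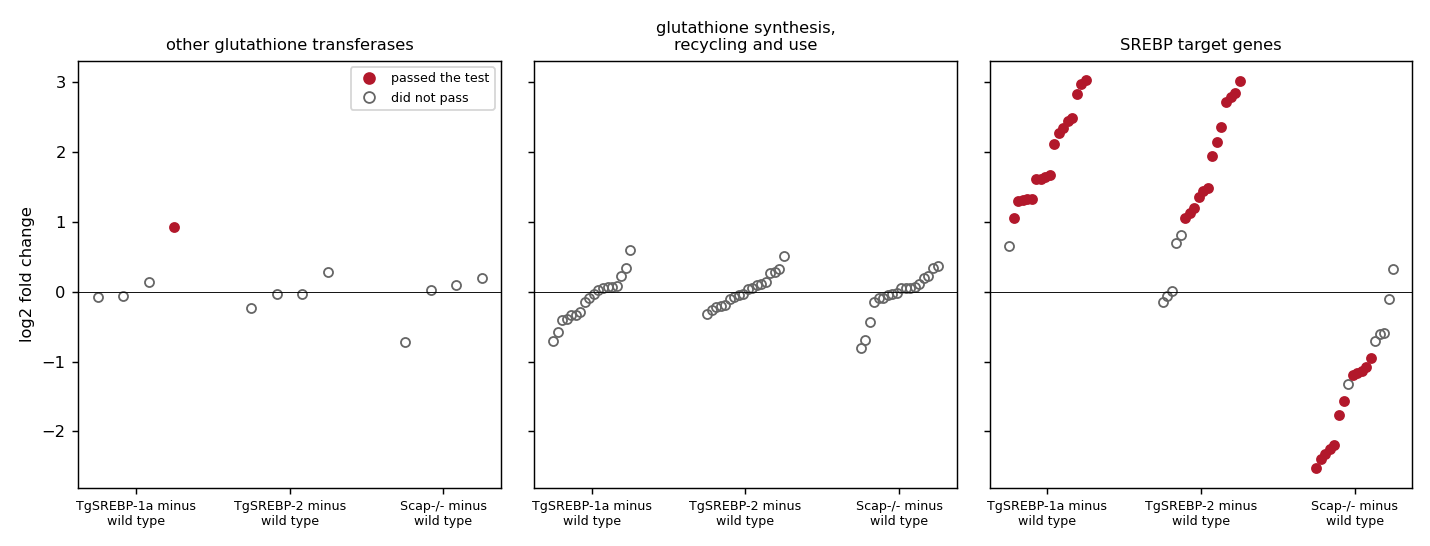
Log2 fold change of each measured gene in the lists of other glutathione transferases (4 genes), of glutathione synthesis, recycling and use (18 genes) and of SREBP target genes (18 genes), each group against its own wild type, with genes sorted by value within a comparison. Filled points passed the test and open points did not: 1 filled point (Gstm7) in the first panel, 0 in the second, and 17, 13 and 12 in the third.

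Transferases of these classes are also known targets of NRF2, a transcription factor of the response to electrophiles, and of the xenobiotic receptors CAR and PXR. Of 11 measured NRF2 targets, 2 rose in TgSREBP-1a, Me1 (2.35 ± 0.29), which is an SREBP target too, and Blvrb (0.98 ± 0.13; limma, adjusted p = 0.002), and 1 fell, the growth inhibitor Osgin1 (-1.11 ± 0.14; limma, adjusted p = 0.0012). Their median was 0.08 (6 unadjusted, against 10.3% of all probe sets), where 1.36% of all probe sets were called higher and 0.814% lower. In TgSREBP-2 0 of the 11 passed in limma (4 unadjusted, against 7.92% of all probe sets; median -0.02). In Scap-/- 0 passed (2 unadjusted, against 7.74%; median 0.07). Between the wild type pools 2 were lower in the transgenic study, Osgin1 (-1.02 ± 0.14) and Blvrb (-1.05 ± 0.13), and 0 were higher. There 6 of the 11 had an unadjusted p under 0.05 in limma, against 9.7% of all probe sets, of which 0.355% were called lower. Of 4 measured CAR and PXR targets, 1 rose in TgSREBP-1a, the organic anion carrier Slco1a4 (1.38 ± 0.15; limma, adjusted p = 0.00054), and 0 fell. In TgSREBP-2 0 of the 4 passed in limma (2 unadjusted), and in Scap-/- 0 passed (2 unadjusted). In TgSREBP-1a 3 of the 4 had an unadjusted p under 0.05 in limma. The shares of all probe sets are those given above for the NRF2 targets. Ces2a, a carboxylesterase, was lower in the transgenic-study wild type pool (-1.57 ± 0.21; limma, adjusted p = 0.0093).

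Of 13 measured among 49 other phase I and II enzymes, 5 fell in TgSREBP-1a and 0 rose (8 unadjusted; median -0.46). Over all probe sets 0.814% were called lower there, 10.3% had an unadjusted p under 0.05 in limma, and the median was -0.02. In TgSREBP-2 1 fell (5 unadjusted, against 7.92% of all probe sets; median -0.36), where 0.161% of all probe sets were called lower. In Scap-/- 0 passed in limma (4 unadjusted, against 7.74%; median -0.23). For the wild type pools, 2 were lower in the transgenic study (4 unadjusted, against 9.7%), where 0.355% of all probe sets were called lower.

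Since pi class transferases are known to differ between male and female mouse liver, genes with such a bias were listed too. Of 10 measured genes that are higher in male liver, 5 fell in TgSREBP-1a (C6, C8b, Moxd1, Susd4 and Egfr), 1 rose (Rdh9), and the median was -0.73 (7 unadjusted). Over all probe sets 1.36% were called higher there and 0.814% lower, and 10.3% had an unadjusted p under 0.05 in limma. In TgSREBP-2 1 fell (Moxd1; 4 unadjusted, against 7.92% of all probe sets; median -0.36), where 0.161% of all probe sets were called lower. In Scap-/- 0 passed in limma (4 unadjusted, against 7.74%; median -0.20). Between the wild type pools, where Gstp3 differed most, 1 of the 10 was higher in the transgenic study (Moxd1, 0.60) and 0 were lower. Over all probe sets 0.153% were called higher there and 0.355% lower. An unadjusted p under 0.05 in limma was found for 7 of the 10, against 9.7% of all probe sets, and the median was -0.31. Of 9 measured genes that are higher in female liver, 1 rose in TgSREBP-1a (Acot3, 0.61), 0 fell, and the median was 0.04 (2 unadjusted). In TgSREBP-2, in Scap-/- and between the wild type pools 0 of these 9 passed in limma (2 unadjusted in each).

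The members lie among other genes of their classes in the genome. In RefSeq gene order Gstt3 stands beside Gstt1, Gstt4 and Gstt2, Gstm4 beside Gstm1, Gstm2 and Gstm3, and Gstp3 beside Gstp2 and Gstp1. These relatives were not measured, since no probe set tested carries the symbol of any of them alone. Among the 5 nearest genes on either side, the measured neighbours were Susd2 and Cabin1 of Gstt3, Ampd2 of Gstm4, and Nudt8, Doc2g and Cdk2ap2 of Gstp3. Susd2 and Cabin1 both read 0.02 in TgSREBP-1a, against 2.01 for Gstt3, and 0.01 and 0.06 in Scap-/-. Ampd2, an AMP deaminase, read -0.16 in TgSREBP-1a. Nudt8 and Doc2g read 0.01 and -0.10 between the wild type pools, against 3.11 for Gstp3. Cdk2ap2 fell in TgSREBP-1a (-0.73 ± 0.15; limma, adjusted p = 0.024), a call lost with 3 of the 4 arrays left out in turn.

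Markers of some cell types differed between the same groups. In bulk liver, fewer cells of a type and less RNA per cell cannot be told apart. Of 20 hepatocyte markers 5 were measured, with an average log2 level between 8.98 and 9.13 in TgSREBP-1a, between 9.94 and 10.31 in TgSREBP-2 and between 10.26 and 10.51 in their wild type, and 10.10 to 10.49 in Scap-/-, against 10.38 to 10.53 in its wild type. The members did not move alike: in TgSREBP-1a C8a (-2.60), C8b (-2.22), which is also in the male-liver list, and Itih4 (-1.51) fell, while Apoa1 (-0.42) and Trf (0.13) did not pass. Of 14 endothelial markers 6 were measured, at 6.98 to 7.01 in TgSREBP-1a, 6.51 to 6.57 in TgSREBP-2 and 6.67 to 6.72 in wild type. In TgSREBP-1a against wild type 1 of them passed (Lyve1, 0.64), where 1.36% of all probe sets were called higher. There 3 had an unadjusted p under 0.05 in limma, against 10.3% of all probe sets, and the median was 0.26. Against TgSREBP-2, Lyve1 and Ptprb were higher in TgSREBP-1a, where 1.18% of all probe sets were called higher. In that comparison 4 had an unadjusted p under 0.05 in limma, against 14.7% of all probe sets, and the median was 0.33. Of 2 measured macrophage markers Cd163 rose in TgSREBP-1a (0.91), and the 1 erythroid marker, Tfrc, rose in TgSREBP-2 (1.5). Markers of stellate cells (2 measured), cholangiocytes (2) and lymphocytes (2) had 0 calls in limma in the 5 comparisons (also 0 at an unadjusted p under 0.05), with medians of 0.04, -0.09 and -0.06 in TgSREBP-1a. The 3 measured of 18 pancreatic acinar markers, Cpb1, Cela3b and Ctrc, averaged 6.07 to 6.11 in TgSREBP-1a, 9.75 to 10.10 in TgSREBP-2 and 8.84 to 9.17 in wild type. In the Scap study they averaged 6.32 to 6.43 in Scap-/- and 8.02 to 8.23 in wild type. The acinar markers did not move alike. Cpb1 (-4.67 ± 0.21) and Cela3b (-3.84 ± 0.16) fell in TgSREBP-1a, and they also fell in Scap-/- (-3.21 ± 0.21 and -1.89 ± 0.16). Ctrc passed in neither (-0.22 ± 0.10 and -0.13 ± 0.10) and rose in TgSREBP-2 (1.51 ± 0.10). Cpb1 and Cela3b had their lowest means in TgSREBP-1a (5.10 and 6.49) and Scap-/- (5.68 and 6.83). The part of these cell types in the values of the transferases was not tested.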

How the data were processed

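The authors deposited log2 expression values of 10 arrays, ascribed to RMA with no version per the submitters' processing notes, while the design text names Microarray Suite 5.0. RMA corrects background, equalises array distributions and summarises probes. Deposited array medians lay between 5.625 and 5.662. No detection calls or genome build were given in the sources used here.

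Of 12477 probe sets, 66 controls were left out. Symbols came from the platform annotation (10581 probe sets with 1 symbol, 178 with several, 1652 with none), and RefSeq (GRCm38.p6) matched 10570 of them by gene ID and changed 0. limma 3.58.1 in R 4.3.3 fitted 1 coefficient per group to all arrays (lmFit, eBayes), with two-sided Benjamini-Hochberg adjusted p-values over 12411 probe sets. The procedure was tested on simulated data. List genes, relatives and neighbours were represented by their brightest probe set, while likeness was ranked over single probe sets, which for Slc44a1 picked the dimmer of 2. Array number limits precision: the median standard error was 0.115.

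The members and gene lists were chosen with earlier results of these data known. Named genes are the members, the other transferases, called genes of the lists (at most 4 by size), the 5 probe sets most like each member and measured neighbours (5 per side). Gclc and Gclm, the called male-liver genes after the fourth, and values of list genes that did not pass, were added after their values were seen. The 1 column of per-sample values that each array has was used, and 0 others existed. Alternatives were a fit on 4 arrays, the hybridisation number as a block, brighter probe sets, repeated quantile normalization, mean of probe sets, no fold minimum, and each array left out.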

Additional observations from a re-analysis of the deposited data

How the results depend on the processing

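With quantile normalization repeated, the log2 fold changes of Gstt3, Gstm4 and Gstp3 moved by less than the pooled SD of the gene's own duplicates in all 5 comparisons. The deposited values are ascribed to RMA, which already equalises array distributions, so this repeat is a weak check. With an array left out, Gstp3 lay between -1.69 and -1.18 for TgSREBP-1a against TgSREBP-2, and between -0.22 and 0.29, on both sides of 0, for TgSREBP-2 against wild type. Gstt3 also lay on both sides of 0 in TgSREBP-2 against wild type (-0.08 to 0.03). Each member has 1 probe set, so a mean of probe sets gave no other value. With only the 4 arrays of a comparison, the calls numbered 5 in Scap-/- (34 in the fit of all arrays) and 13 between the wild type pools (63). With a replicate block for the hybridisation number they numbered 101 in TgSREBP-2 (62), 91 in Scap-/- and 145 between the wild type pools. The labels do not tie this number to a batch. Deviations of same-numbered arrays correlated between 0.057 and 0.598, with 2 pairs per comparison. With each array left out, the calls lay between 142 and 193 in TgSREBP-1a (270), 25 and 124 in TgSREBP-2, 10 and 68 in Scap-/-, 87 and 384 between the transgenic lines (231), and 14 and 120 between the wild type pools.

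Among the other transferases, the count of 1 in TgSREBP-1a and of 1 between the lines lay between 0 and 1 with an array left out, and the replicate block gave 1 call in Scap-/- (0 otherwise). Among the 18 glutathione genes, TgSREBP-1a gave 2 calls with only 4 arrays, 1 with the block and 0 to 1 with an array left out. The comparison of the lines gave 2 with only 4 arrays, 2 with the block and 0 to 1 with an array left out. Scap-/- and the wild type pools gave 0 to 1 with an array left out. These settings for the lists were chosen after seeing the data. Gstm4 in Scap-/- stayed short of the threshold in every alternative run (adjusted p between 0.84 and 1.0). The alternatives were also run for called genes among the other transferases, the genes most like a member, Scap and Cdk2ap2. Called genes of the glutathione, NRF2, CAR and PXR lists were included. Of these alternatives, 245 kept the call, 77 lost it and 0 turned the direction. Calls of other named genes, such as most SREBP targets and the cell type markers, were not rerun. The cause of these changes was not tested. The background correction could not be varied, since only summarised values were used, and without detection calls a dim probe set cannot be told from background.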
